A study of Mus musculus with 4 samples.

Results

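The 8 genes for the subunits of condensin I and condensin II were examined together with Top2a and Mki67 in RNA that came down with an antibody to DDX20, an RNA helicase of the SMN complex, the machine that assembles spliceosomal particles. The 10 genes were taken by name (Smc2, Smc4, Ncapd2, Ncapd3, Ncapg, Ncapg2, Ncaph, Ncaph2, Top2a and Mki67), and all 10 of them were found among the 55357 gene identifiers of the count table and passed the filter on low counts, which left 17422 genes. The libraries came from testis cells of C57BL/6 mice aged 7 days, with no genotype or treatment given in the labels. There were 2 libraries of RNA precipitated with the DDX20 antibody (DDX20 RIP) and 2 libraries of input RNA, set aside as 10% of the total RNA. Cells had been crosslinked with 254 nm light at 200 mJ per square cm, which joins RNA to protein in contact with it. The antibody catalogue numbers of the RIP libraries differ in 1 character between replicates. Whether animals were pooled, and whether the replicates are separate preparations, is not said in the labels; the p-values therefore rest on a spread between libraries that could be purely technical. No precipitation with a control antibody was analysed here, so a higher value means a larger share of the precipitated RNA than of the input and not binding by DDX20.

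Condensins are ring-shaped ATPases that fold chromatin into the compact chromosomes of mitosis. Both forms hold the same pair of long coiled-coil proteins, SMC2 and SMC4, and differ in the rest of the ring: a kleisin closes it (NCAPH in condensin I, NCAPH2 in condensin II) and a pair of HEAT-repeat proteins binds to the kleisin (NCAPD2 and NCAPG, or NCAPD3 and NCAPG2). Condensin II is nuclear throughout the cell cycle and begins compaction in prophase, while condensin I reaches the chromosomes once the nuclear envelope has broken down. TOP2A passes one DNA duplex through another so that sister chromatids can come apart, and Ki-67, encoded by Mki67, coats the surface of mitotic chromosomes and keeps them from sticking together. In the testis of young mice both spermatogonia and Sertoli cells still divide, and the data do not tell their RNA apart.

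Promoter sequence is shown for the 3 genes that mark the extremes of the results: Top2a and Mki67, which rose most, and Ncaph2, which did not pass the test. Each line gives the 250 bases before the RefSeq start, 5′ to 3′ on the gene's strand (RefSeq, GRCm38.p6), and capitals mark CCAAT, which the factor NF-Y binds, and TTTGAA or TTTAAA, the cell cycle homology element, each searched on both strands. The windows are Top2a chr11:99024190-99024439 (minus strand), Mki67 chr7:135716380-135716629 (minus strand) and Ncaph2 chr15:89355469-89355718 (plus strand).
Top2a: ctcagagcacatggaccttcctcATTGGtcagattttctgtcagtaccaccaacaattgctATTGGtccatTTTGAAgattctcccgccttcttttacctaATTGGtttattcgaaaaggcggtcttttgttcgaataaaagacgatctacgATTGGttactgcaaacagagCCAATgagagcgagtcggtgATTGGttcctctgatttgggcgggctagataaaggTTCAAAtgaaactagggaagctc
Mki67: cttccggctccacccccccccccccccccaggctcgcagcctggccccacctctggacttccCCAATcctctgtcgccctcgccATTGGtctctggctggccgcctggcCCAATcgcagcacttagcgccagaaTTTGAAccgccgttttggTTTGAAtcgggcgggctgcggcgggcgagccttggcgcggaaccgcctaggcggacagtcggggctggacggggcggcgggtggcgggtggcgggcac
Ncaph2: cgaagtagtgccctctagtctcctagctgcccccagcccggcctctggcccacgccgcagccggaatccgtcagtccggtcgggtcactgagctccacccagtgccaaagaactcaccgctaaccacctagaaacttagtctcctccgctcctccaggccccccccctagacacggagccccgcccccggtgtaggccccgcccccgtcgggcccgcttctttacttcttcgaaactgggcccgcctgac

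The Top2a window held 6 matches to CCAAT and 2 to the cell cycle homology element, the Mki67 window held 3 and 2, and the Ncaph2 window held neither. The window of Ncaph, which rose by 1.98 on the log2 scale, held neither as well. Of the 9 genes with a window in the table, CCAAT was found in 5 (Smc2, Ncapg, Ncapd2, Mki67 and Top2a), against 33.8% of all 32851 windows of this length. The homology element was found in those 5 genes, in Ncapg2 and in the second of 2 Ncapd3 windows, against 25.2% of all windows. That Ncapd3 window (chr9:27060166-27060415) lies inside the annotated gene, and the window at its start (chr9:27029915-27030164) held no match. Both percentages are shares of windows and not of genes, and a gene can have more than 1 window. These letters describe the genes and are not a measurement of the libraries, which count RNA.

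The libraries held 38458014 and 37927689 counts in RIP and 21913977 and 21416567 in input. The 10 genes took 0.450% and 0.447% of RIP counts, against 0.170% and 0.171% of input counts, and the lowest single count was 1082, for Ncapg in an input library. Markers of other cells in the suspension moved too: summed over 4 Leydig cell genes the level was 102 and 104 CPM (counts per 1000000, on library sizes adjusted by the trimmed mean of M values, TMM) in RIP, against 244 and 236 CPM in input, and over 7 germ cell genes it was 188 and 190 CPM in RIP, against 408 and 411 CPM in input. Over 7 Sertoli cell genes it was 1882 and 1885 CPM in RIP, against 2836 and 2809 CPM in input. Single genes carried much of these sums. Clu of Sertoli cells averaged 1299 CPM in RIP and 2069 CPM in input. Among germ cell genes, Tex101 averaged 60.7 and 164 CPM and Stra8 48.3 and 119 CPM in RIP and input. All 4 Leydig genes fell, 4 of 7 germ cell genes fell and 2 rose, and 4 of 7 Sertoli genes fell and 2 rose. Over all genes tested, 38.6% were lower and 38.7% higher with TMM. Genes with under 1000 nt of coding sequence had a median log2 fold change of -0.76. With total counts 0 germ cell genes were higher and 5 lower, and 1 Sertoli gene was higher and 5 lower. With an offset for coding length the counts were 0 and 6 for germ cells and 1 and 5 for Sertoli cells. All 4 Leydig genes were lower with either. Of all coding genes, 32.1% were higher and 41.1% lower with that offset. Of the germ cell genes called higher with TMM, Zbtb16 lost its call in 1 and Gfra1 in 3 of the 4 fits that left out a library. Wt1 of Sertoli cells averaged 272 CPM in RIP and 167 CPM in input. Its log2 fold change was 0.70 with TMM, 0.36 with total counts and 0.33 with the coding length offset. Gata4, the other Sertoli gene called higher with TMM, stood at -0.09 with total counts, where it was not called. None of the markers listed was at 0 in every library, among them Amh and Sox9 of Sertoli cells and Ddx4 of germ cells. A fall here means a smaller share of the precipitated RNA than of the input RNA, and is not a count of cells. The part of cell makeup in the results below was not tested.

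Of the 10 genes, 9 were higher in RIP and 0 were lower in edgeR's quasi-likelihood test (adjusted p of 0.05 or less over all genes tested), and 8 of them differed by at least 2-fold. Over all 17422 genes, 38.7% were called higher, 38.6% were called lower and 17.1% were called higher by at least 2-fold. That even split depends on TMM: total counts gave 4994 genes higher and 8845 lower, upper quartiles gave 5022 higher and 8798 lower, and 9 of the 10 genes were higher with either. The median log2 fold change of the 10 genes was 1.73, with a range of 0.03 to 2.24, beside a median of -0.05 over all genes. In 9 genes the lower RIP library stood above the higher input library, by ratios of 1.75 for Ncapg to 4.67 for Mki67, and in Ncaph2 the RIP and input libraries overlapped.

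**Figure D1:**
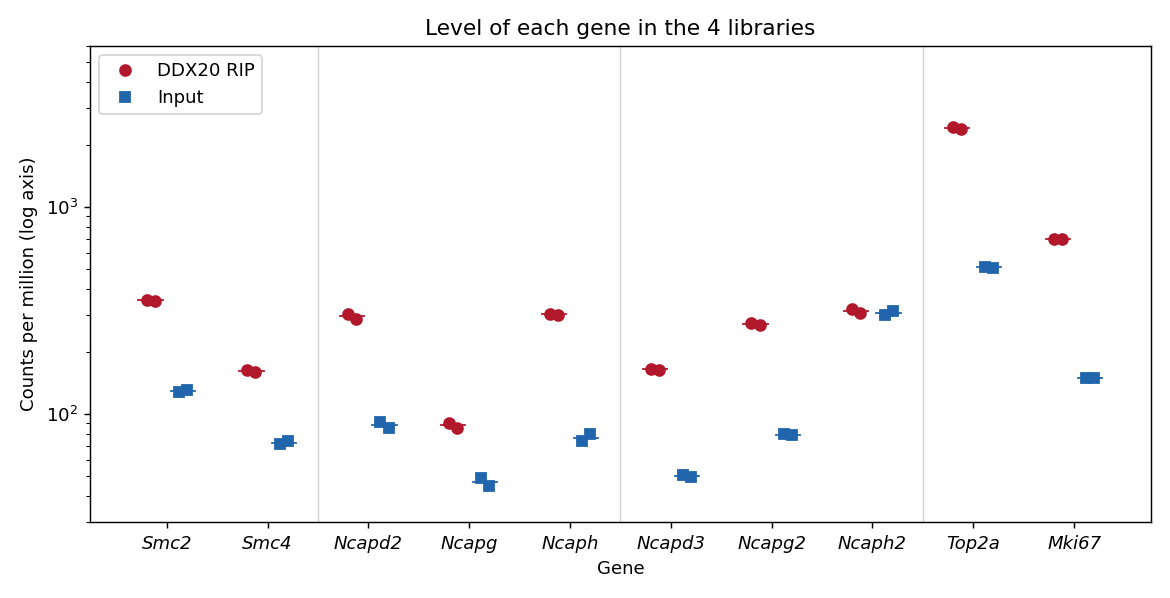
CPM (log axis, TMM-scaled library sizes) for each gene in each library, with DDX20 RIP as circles and input as squares, and a short line at the mean of 2 libraries. The RIP libraries lie above the input libraries in 9 genes, and in Ncaph2 both groups lie between 300.5 and 320.5 CPM.

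The genes of the SMC pair rose to unequal extents. Smc2, whose protein carries one of the ATPase heads of the ring, had 356 and 351 CPM in RIP libraries, against 128 and 130 CPM in input libraries. Smc4, its partner, had 163 and 159 CPM in RIP, against 71.9 and 73.8 CPM in input. The groups did not overlap for either gene, and replicates lay within a few percent of each other. The log2 fold change was 1.46 ± 0.0320 (SE, n = 2 per group) for Smc2 and 1.15 ± 0.0405 for Smc4, with adjusted p of 2.04e-29 and 2.22e-23 in edgeR's quasi-likelihood test. Inside each library, Smc2 stood at 2.08 and 2.10 times Smc4 per kb of exon in RIP and at 1.69 and 1.68 times in input, a ratio that does not depend on how libraries are scaled.

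Among the subunits that belong to condensin I, the kleisin gene Ncaph rose most. Ncaph had 304 and 302 CPM in RIP, against 73.9 and 79.8 CPM in input, and its log2 fold change of 1.98 ± 0.0374 was above that of 98.4% of all genes tested. Ncapd2, which encodes the larger HEAT-repeat subunit, had 305 and 289 CPM in RIP, against 91.0 and 85.3 CPM in input, a log2 fold change of 1.75 ± 0.0379. Ncapg, the other HEAT-repeat subunit, had 90.8 and 85.7 CPM in RIP, against 49.1 and 44.8 CPM in input. All 3 sets of libraries were separated, and Ncapg, at 0.91 ± 0.0539, had the smallest difference of the 9 genes that passed the test. Adjusted p from edgeR's quasi-likelihood test was 2.87e-31 for Ncaph, 1.27e-29 for Ncapd2 and 6.27e-17 for Ncapg.

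The subunits of condensin II split more widely. Ncapd3, a HEAT-repeat subunit, had 165 and 164 CPM in RIP, against 50.7 and 49.8 CPM in input, a log2 fold change of 1.71 ± 0.0428 (adjusted p = 8.48e-28, edgeR). Ncapg2, its HEAT-repeat partner, had 274 and 269 CPM in RIP, against 80.4 and 78.7 CPM in input, a log2 fold change of 1.77 ± 0.0362 (adjusted p = 2.75e-30, edgeR). Ncaph2, the kleisin gene, had 321 and 308 CPM in RIP, against 300.5 and 315 CPM in input. For Ncapd3 and Ncapg2 the groups were well apart, whereas for Ncaph2 the ranges overlapped, and its log2 fold change of 0.03 ± 0.0304 did not pass the test (adjusted p = 0.369, edgeR).

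Ncaph2 was also the gene whose direction moved with the scaling between libraries. Total counts and upper-quartile scaling lower the median of all genes by 0.35 and 0.34 on the log2 scale, and with them Ncaph2 stood at -0.32 and -0.31 and was called lower. Relative to the median of all genes it stood at 0.08 with TMM, total counts and upper-quartile scaling alike. Without RIP replicate 2 it was called higher, at 0.10 (adjusted p = 0.00525, edgeR). The other 9 genes kept a positive sign and their call under the 3 other scalings run (RLE, upper quartile and total counts).

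Exons of other genes lie across exons of Ncaph2 and Ncapg. Ncaph2 lies on chromosome 15 from 89355719 to 89372826 (GRCm38, plus strand), and on the other strand 829 nt of its annotated exons overlap exons of Sco2, a cytochrome oxidase assembly gene, and 535 nt overlap those of Tymp. Sco2, with 1253 nt of exon in all, was listed at 0 and 0 counts in RIP and at 1 and 0 in input, and Tymp at 41 and 33 counts in RIP and at 27 and 41 in input. Ncapg overlaps exons of Lcorl by 944 nt on the other strand, and Lcorl had 471 and 482 counts in RIP and 328 and 321 in input. The labels name the NEBNext Ultra RNA kit but do not say whether strand was kept or used in counting; without it, reads from these overlaps cannot be told apart, and their part in the values of Ncaph2 and Ncapg was not tested. The small RNAs Scarna10 and Gm23451, which overlap exons of Ncapd2 and Top2a, were listed at 0 counts in every library, as were Mir15b and Mir16-2, which lie in introns of Smc4.

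Top2a and Mki67 rose furthest and by nearly the same factor. Top2a had 2435 and 2384 CPM in RIP, against 513 and 509 CPM in input, and Mki67 had 700 and 698 CPM in RIP, against 149 and 150 CPM in input. The groups were far apart and the replicates of each group within a few percent. The log2 fold changes were 2.24 ± 0.0231 and 2.23 ± 0.0284 (4.71-fold and 4.69-fold; adjusted p = 3.10e-38 and 6.44e-36, edgeR's quasi-likelihood test), a difference smaller than either standard error. Of all genes tested, 99.4% had a lower value in each case. Top2a lies on chromosome 11 from 98992943 to 99024189 and Mki67 on chromosome 7 from 135689784 to 135716361, both on the minus strand (GRCm38).

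Set per kb of annotated exon, so that genes of unequal length can be compared, the order of the genes differed between precipitate and input. In RIP, Top2a led at 267 ± 3.96 CPM per kb (SD, n = 2), followed by Ncaph2 (74.9 ± 2.08), Ncaph (70.3 ± 0.418), Mki67 (69.5 ± 0.119), Smc2 (64.6 ± 0.687) and Ncapd2 (47.4 ± 1.80), and then by Smc4, Ncapg2, Ncapd3 and Ncapg, at 30.9 to 12.5 CPM per kb. In input, Ncaph2 led at 73.3 ± 2.49 CPM per kb, followed by Top2a (56.7 ± 0.283), Smc2 (23.5 ± 0.305), Ncaph (17.8 ± 0.967) and Mki67 (14.8 ± 0.0669). Ncapd2 and Smc4 were next in input, at 14.1 and 14.0 CPM per kb, with overlapping libraries, and Ncapg and Ncapd3 came last, at 6.64 and 6.37 CPM per kb, again overlapping. No neighbours overlapped in RIP. Dividing by coding length instead kept Top2a, Ncaph2 and Ncaph in the leading 3 places in RIP and Ncaph2 and Top2a in the leading places in input, but placed Mki67 sixth in RIP and eighth in input.

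Ratios between counterpart subunits, taken inside each library and so free of scaling between libraries, moved by very different amounts. The condensin I to condensin II kleisin ratio, Ncaph over Ncaph2 per kb of exon, was 0.925 and 0.954 in RIP and 0.240 and 0.247 in input, a log2 change of 1.95. Ncapg over Ncapg2 was 0.466 and 0.449 in RIP, against 0.859 and 0.800 in input, a log2 change of -0.86. Ncapd2 over Ncapd3 was 2.32 and 2.22 in RIP and 2.26 and 2.16 in input, so the groups overlapped and the log2 change was 0.04. The form I gene gained on its counterpart for the kleisin, lost for NCAPG and stayed within the spread for NCAPD2.

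The ratio of Top2a to the summed 8 condensin genes, per kb of exon, was 0.765 and 0.769 in RIP and 0.352 and 0.341 in input, a log2 change of 1.15. For Mki67 it was 0.197 and 0.202 in RIP, against 0.0913 and 0.0897 in input, a log2 change of 1.14. The groups were separate for all ratios but that of Ncapd2 to Ncapd3. With 2 libraries per group an exact two-sided permutation test cannot go below 0.333, which is what those ratios gave (0.400 adjusted over 6 ratios), and 0.667 for Ncapd2 to Ncapd3.

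**Figure D2:**
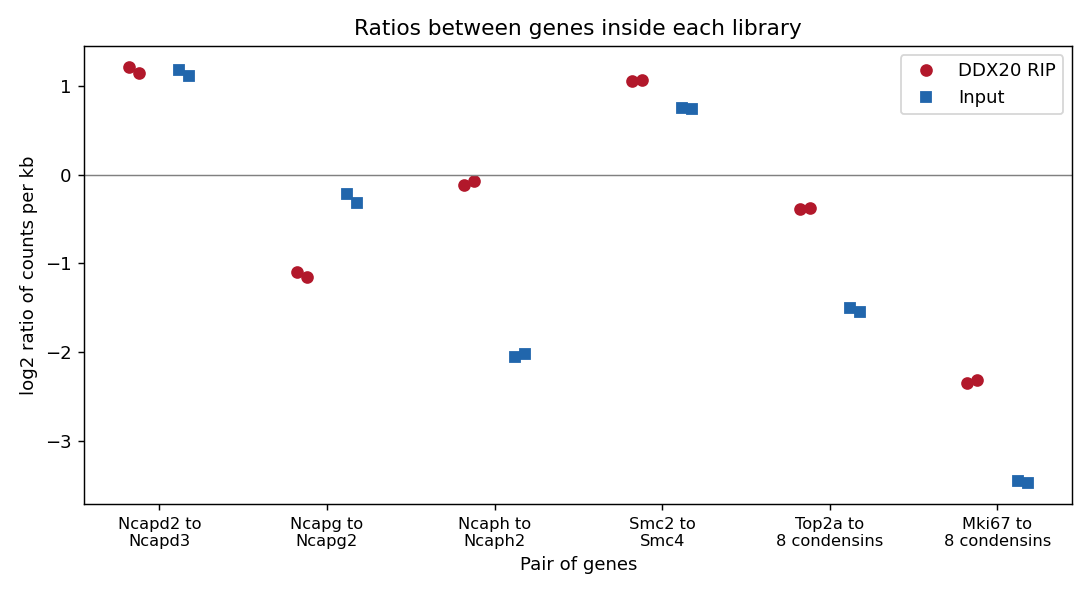
Log2 ratio of counts per kb of exon between the named genes inside each library (DDX20 RIP as circles left of input as squares). The Ncaph to Ncaph2 ratio shows the widest gap, a log2 change of 1.95, and the Ncapd2 to Ncapd3 ratio overlaps between groups.

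The genes have long coding sequences, a property the choice by name did not use. Their median coding length was 3716 nt, against 1374 nt over all coding genes tested, and 8 of 10 exceeded 3000 nt; Ncaph (2193 nt) and Ncaph2 (1821 nt) are the shorter ones and Mki67 (9531 nt) the longest. In this comparison the call rate rose with coding length: 12.9% of genes under 1000 nt were higher in RIP, 45.7% of genes of 1000 to below 2000 nt, 70.8% of genes of 2000 to below 3000 nt and 81.2% of genes of 3000 nt or more. The 8 condensin, Top2a and Mki67 genes of 3000 nt or more were all higher, so their count stands close to the background of their length class, and 7 of them were higher by at least 2-fold, beside 65.4% of the class.

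Within its length class each gene had its own place. Ncaph stood above 99.6% of genes of 2000 to below 3000 nt, whose median log2 fold change was 0.79. Top2a and Mki67 stood above 97.3% and 97.1% of genes of 3000 nt or more, whose median was 1.30. This class has no upper bound and holds both Ncapg (3012 nt) and Mki67 (9531 nt), so its ranks do not compare genes of like length. Ncapg2, Ncapd2 and Ncapd3 stood above 80.4%, 79.8% and 77.6% of that class and Smc2 above 60.7%. Smc4 and Ncapg lay below the middle of it, above 41.7% and 31.6% of its genes, and Ncaph2 lay above 43.4% of genes of 1000 to below 2000 nt. Across the 10 genes, coding length and log2 fold change had a Spearman's rho of 0.588, and across 14686 coding genes it was 0.637; the points share the same 4 libraries. GC content had a rho of 0.0788 across the 10 genes.

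**Figure D3:**
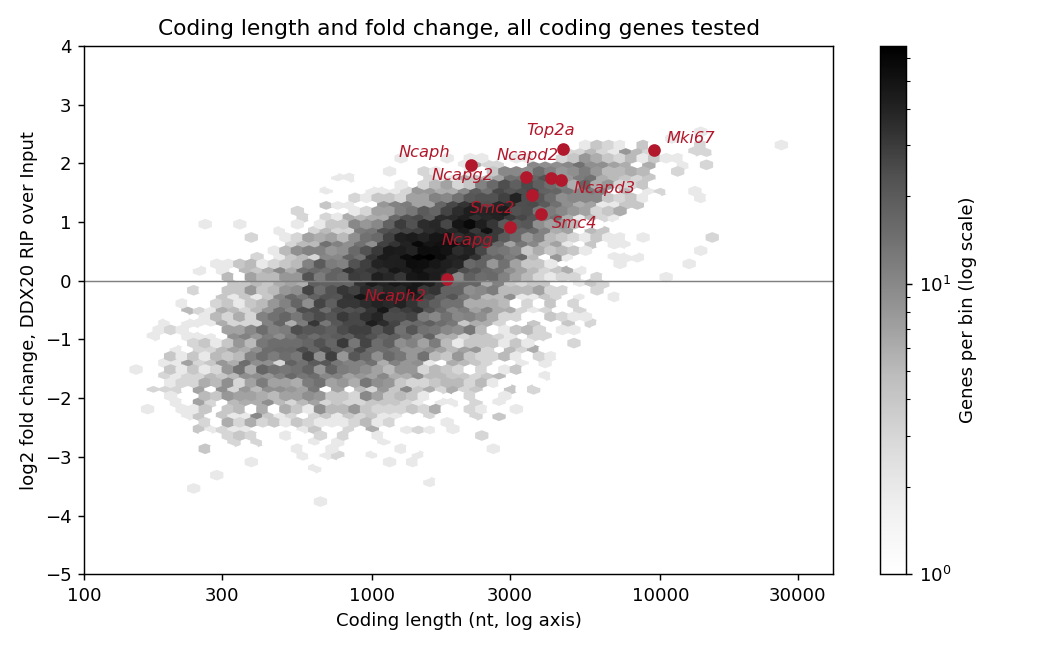
Coding length (log axis) against log2 fold change, DDX20 RIP over input, for all coding genes tested (grey bins, darker for more genes) with the 10 genes as labelled points. Fold change rises with length over all genes, Ncaph and Top2a lie at the upper edge of genes of like length, and Ncaph2, Ncapg and Smc4 lie inside the cloud.

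A refit with a smooth offset for coding length set each gene against the trend of its length. Ncaph was then highest, at a log2 fold change of 1.21, and Top2a followed at 0.82, Ncapg2 at 0.58, Ncapd2 at 0.41, Mki67 at 0.36, Ncapd3 at 0.31 and Smc2 at 0.23. These 7 genes were called higher and 3 were called lower, namely Smc4 at -0.14, Ncapg at -0.18 and Ncaph2 at -0.53. With that offset 32.1% of all 14686 coding genes were called higher and 41.1% lower. Mki67, level with Top2a before the offset, stood below it after it, and Smc4 and Ncapg changed sign. An offset for transcript length, chosen after seeing the data, left 9 of the 10 genes called higher and 1, Ncaph2, called lower. The values were then 1.88 for Ncaph, 1.55 for Top2a, 1.06 for Mki67, 0.63 for Smc4, 0.52 for Ncapg and -0.26 for Ncaph2.

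**Figure D4:**
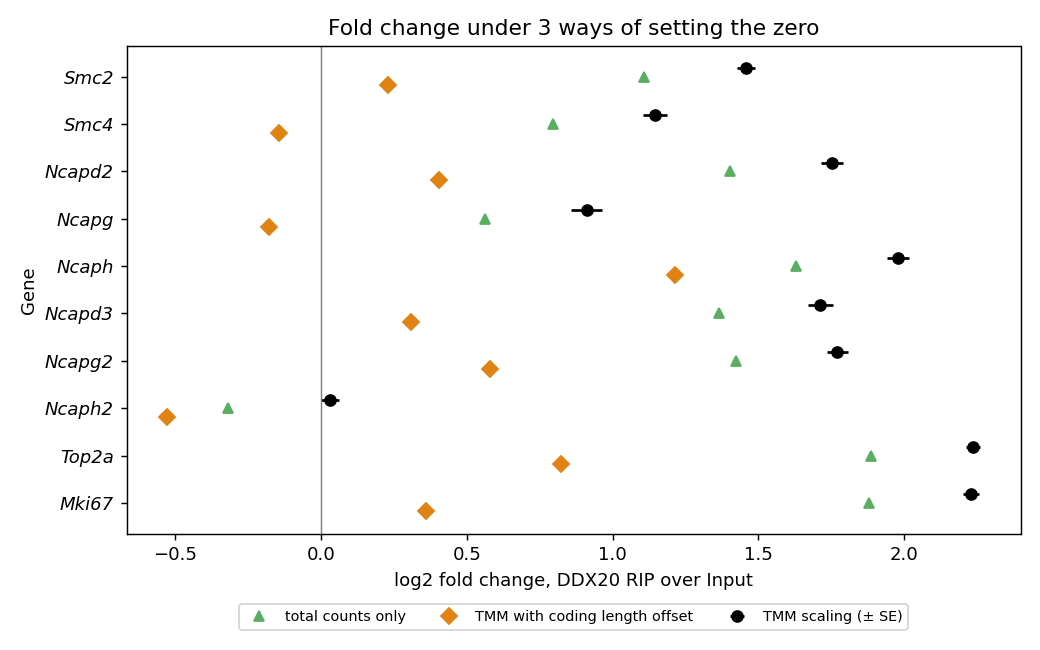
Log2 fold change of each gene, DDX20 RIP over input, with TMM scaling (circles, bars give the standard error), with total counts only (triangles) and with a coding length offset (diamonds). With the offset Ncaph lies highest at 1.21, and Smc4, Ncapg and Ncaph2 lie below 0.

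Other genes of chromosome structure and division were read in 4 lists drawn up from textbook roles. Over all genes 38.7% were higher and 38.6% lower with TMM, and 32.1% and 41.1% of coding genes with the coding length offset. The share called higher also rose with coding length, from 12.9% under 1000 nt to 81.2% at 3000 nt or more. The lists were not matched for length. Of 29 genes in a broad list, below called condensin regulators and partners, 22 were higher and 4 lower, and the median log2 fold change was 0.57. Besides regulators of condensin and partners at the chromosome axis and surface, the list holds genes with other roles, such as Anln and Nsd2. Anln, an actin-binding protein of the cleavage furrow, rose by 1.87 ± 0.0271 and Nsd2, a histone methyltransferase, by 1.59 ± 0.0268. Set, a histone chaperone (-0.48 ± 0.0300), and Birc5, the survivin subunit of the chromosomal passenger complex (-0.18 ± 0.0392), fell. With total counts 16 were higher and 8 lower. With the coding length offset 14 were higher and 7 lower, and Birc5, with 420 nt of coding sequence, was called higher at 0.78; with the GC content offset it was not called (-0.032).

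Of 16 genes of cohesin, the SMC5/6 complex and related proteins, 11 were higher and 3 lower, and the median was 0.71. Smchd1, an SMC hinge protein of the inactive X chromosome, rose by 2.11 ± 0.0326, and Rad21, the cohesin kleisin, by 0.39 ± 0.0276 with TMM. Rad21 stood at 0.04 with total counts, where it was not called, and was called lower with the coding length offset, at -0.22. Nsmce1 (-1.07 ± 0.0495) and Nsmce4a (-0.28 ± 0.0515), small subunits of the SMC5/6 complex, fell, but with the transcript length offset Nsmce1 was not called (-0.053) and Nsmce4a was called higher (0.41). With the coding length offset 4 genes of this list were higher and 8 lower, beside 32.1% higher and 41.1% lower over all coding genes.

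Of 12 other topoisomerases and partners, 9 were higher and 2 lower, and the median was 0.86. Topbp1, a scaffold of replication checkpoint signalling, rose by 2.01 ± 0.0295. Top2b, the isoform of topoisomerase II made also by resting cells, had 337 and 331 CPM in RIP, against 112 and 107 CPM in input, and rose by 1.61 ± 0.0338, against 2.24 for Top2a. With the coding length offset Top2b stood at 0.17 and Top2a at 0.82. Rmi2, which acts with Blm and Top3a, fell (-0.92 ± 0.172), as did Tdp2, which clears trapped topoisomerase II (-0.30 ± 0.0807). Tdp2 was no longer called when RIP replicate 1 (-0.16), the first input library (-0.25) or the second (-0.33) was left out, nor with the transcript length (-0.017) or GC content (-0.14) offset, and Rmi2 was not called with the coding length offset (-0.018). With that offset the list had 4 genes higher and 4 lower.

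Of 26 proliferation genes often read beside Mki67, 18 were higher and 6 lower, and the median was 0.95. Mcm6, a subunit of the replicative helicase, rose by 1.55 ± 0.0255 and Rrm1, a subunit of ribonucleotide reductase, by 1.53 ± 0.0275. Pcna, the replication clamp (-0.15 ± 0.0313), and Tyms, thymidylate synthase (-0.75 ± 0.0414), fell. With the coding length offset 17 were higher and 6 lower, and Pcna was called higher at 0.23; with the GC content offset it was not called (-0.04). Ddx20, the gene for the precipitated protein, rose by 0.96 ± 0.0552, and stood at 0.06 with the coding length offset, where it was not called.

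**Figure D5:**
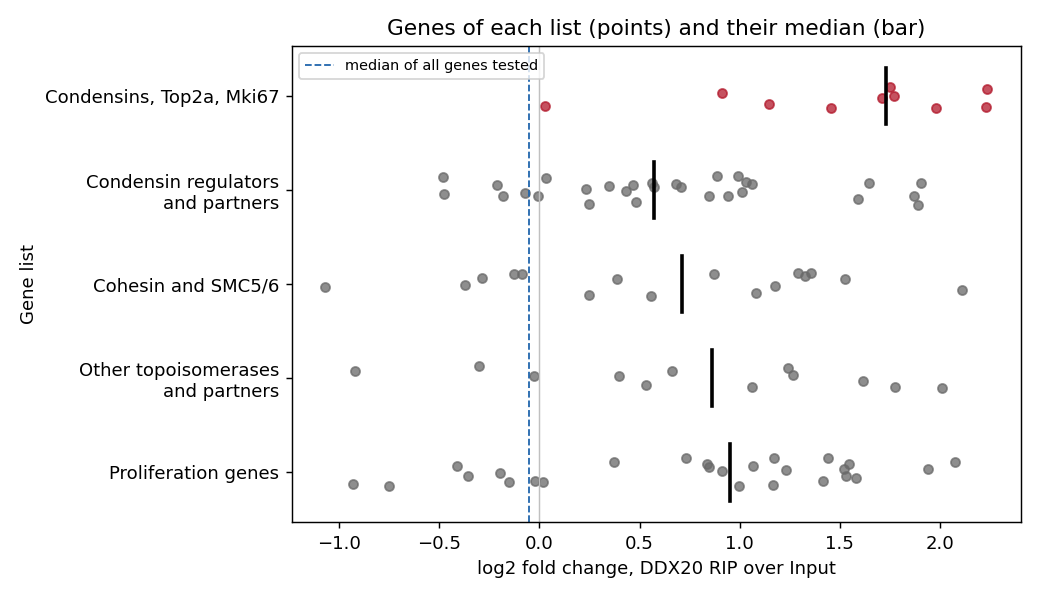
Log2 fold change, DDX20 RIP over input, of the 10 genes and of each gene tested in 4 lists of related genes, with a bar at each list's median and a dashed line at the median of all genes. The medians are 1.73, 0.57, 0.71, 0.86 and 0.95 from top to bottom, against -0.05 for all genes. The lists are not matched for coding length. With the coding length offset the median of the 10 genes was 0.33, against -0.11 for all coding genes.

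Genes from outside chromosome structure were among those with values most like those of Top2a over the 4 libraries. Among 9515 other genes with a mean of at least 10 CPM, small Euclidean distances between centred log2 CPM values were those of Huwe1 (0.0150), Ubr2 (0.0245), Mki67 (0.0247) and Itpr3 (0.0270). Huwe1 and Ubr2 encode large ubiquitin ligases and Itpr3 a calcium channel, with coding lengths of 5265 nt (Ubr2) to 13134 nt (Huwe1). Since replicates lay close together, a small distance mostly restates a similar fold change. The log2 fold change was 2.23 for Huwe1, 2.26 for Ubr2 and 2.23 for Itpr3, beside 2.24 for Top2a. For Mki67 the near genes were Top2a (0.0247), Ckap5 (0.0293), a microtubule polymerase, and again Huwe1 (0.0371) and Ubr2 (0.0414).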

How the data were processed

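RNA was counted per gene in 2 DDX20 RIP and 2 input libraries, grouped by sample title. The deposited values are raw read counts. The tools named in the submitters' processing notes are featureCounts, STAR 2.7.2b, SAMtools, cutadapt 4.1 and Trimmomatic 0.36, with build GRCm38; their order, settings and annotation release were not given in the sources used here. Per the labels' protocols, libraries were made with an NEBNext Ultra RNA kit and read as 150-nt pairs. Of nonzero counts 65.4% to 67.4% are even, a pattern that arises if each mate adds a count, which overstates depth. Symbols, coordinates and lengths come from GENCODE M21, which names 94.1% of identifiers; none of the 10 genes carries the same version number there, so counted gene models can differ. Coding lengths come from the transcript ranked best by APPRIS, without the stop codon; exon lengths are the union over all transcripts.

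Genes were filtered by filterByExpr, scaled by TMM and tested with edgeR 4.0.16 (robust quasi-likelihood fit) under R 4.3.3. The p-values were adjusted by Benjamini-Hochberg over every gene tested. Standard errors are the absolute log2 fold change over the root of F. Alternatives were other scalings and filters, DESeq2 1.42.0, limma-voom (limma 3.58.1), a replicate block, each library left out, a 1.5-fold minimum, a loess offset (span 0.3) for coding length and halved counts. Offsets for transcript length and GC content were chosen after seeing the data. In simulated RIP and input counts of 17015 genes, edgeR recovered 76% of 50 genes changed 1.5-fold and 96% of those changed 4-fold. Only 200 genes were changed there, in both directions, with no trend in coding length. The real libraries have such a trend and far more calls, so these shares do not carry over to them. Replicates differed slightly more than counting noise (median chi-square of halved counts 1.15 and 1.19 times noise in RIP and input). The genes, lists and tests were chosen with earlier results of these data known. Named genes were the 10 genes, per list the 2 called genes of highest mean CPM in each direction, Ddx20, and the 5 nearest patterns to Top2a and to Mki67; predicted genes and pseudogenes were left out of the last, and 1 of the nearest genes is not reported here.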

Additional observations from a re-analysis of the deposited data

How the results depend on the processing

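Over 17 alternatives, 159 of 170 log2 fold changes of the 10 genes kept their direction and their side of the threshold; of the rest, 8 reversed and 3 gained a call. Ncaph2 stood at -0.31 with upper-quartile scaling, -0.32 with total counts, -0.0535 with a filter of 1 CPM, -0.0175 with halved counts, -0.26 with a transcript length offset and -0.53 with a coding length offset, and gained a call without a low-count filter, with a GC offset and without RIP replicate 2. Smc4 (-0.14) and Ncapg (-0.18) reversed with the coding length offset; the cause was not tested. Leaving out 1 library changed no call of the other 9 genes; the lone library of a group is then assumed to vary like the others.
Of the 10 genes, 0 were called lower as reported, against 1 with upper-quartile scaling, 1 with total counts, 1 with the transcript length offset and 3 with the coding length offset. A test against a 1.5-fold change called 4210 genes higher and 4426 lower over the whole table. Condensin regulators and partners had 13 higher and 0 lower in that test, 14 higher and 7 lower with the coding length offset, 8 lower with upper-quartile scaling, 8 lower with total counts and 1 lower with the GC offset, and 2 to 4 lower with 1 library left out. Cohesin and SMC5/6 genes had 1 lower against 1.5-fold, 5 lower with upper-quartile scaling, 5 lower with total counts, and 4 higher and 8 lower with the coding length offset. Other topoisomerases had 1 lower against 1.5-fold, 1 with the transcript length offset and 1 with the GC offset, 4 higher and 4 lower with the coding length offset, and 1 to 2 lower with 1 library left out. Proliferation genes had 2 lower against 1.5-fold.
Same-numbered RIP and input libraries did not deviate together (correlation 0.00536 over 9828 genes). Replicates differed by only 1.15 (RIP) and 1.19 (input) times counting noise, which leaves little for a pair to share. The correlation therefore cannot show whether the number is a pairing. With the replicate number as a block, 6734 genes were called higher and 6655 lower, 9 of the 10 genes were higher, and no call among them changed. Per kb of coding length the 4 ratios between single genes changed by the same amounts, since lengths cancel, but against the summed condensin genes Top2a changed by 1.22 and Mki67 by 1.21 on the log2 scale. Counting both mates would make the depth behind each value smaller than the counts, and with 2 libraries per group the spread is known poorly.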
